A study of Mus musculus with 6 samples.

Results

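The golgin, coat and SNARE genes of the secretory pathway were followed in round spermatids, the haploid male germ cells that build the acrosome from Golgi-derived vesicles. Members were the rows of the deposited count table whose symbol named a golgin or GRASP protein (Golga, Golgb1, Gorasp), a coat subunit (Cop, Sec23, Sec24), a COG subunit, a SNARE (Stx, Vamp, Snap, Vti1, Bet1, Gosr, Sec22, Ykt6) or a syntaxin-binding protein (Stxbp), with the Cops genes left out. This gave 67 of 22770 rows, all 67 on autosomes, and 1 of them, Vamp7-ps, is a pseudogene by name. The series holds 3 Smart-seq2 libraries of the genotype labelled Eif5a SKO (SKO below, an abbreviation the labels do not spell out) and 3 of wild type. All 6 were made from sorted round spermatids of mouse testis at postnatal day 28, mostly at step 8. No Cre driver, strain or other allele is given in the sources used here, and nothing says which libraries came from separate animals, so p-values measure the spread between these libraries only. Eif5a encodes a translation factor, and the comparison asks how the round spermatid transcriptome differs when it is lost.

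Secretory cargo leaves the endoplasmic reticulum in COPII-coated vesicles, and COPI-coated vesicles carry material back from the Golgi and between its cisternae. Golgins are long coiled-coil proteins of the Golgi surface that capture vesicles, GRASP proteins link the cisternae, and the COG complex tethers vesicles that recycle Golgi enzymes. SNAREs then fuse vesicle and target membranes as bundles of one R-SNARE with Qa, Qb and Qc partners, under the control of Sec1/Munc18-type proteins. In round spermatids the same machinery feeds the growing acrosome.

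Counts summed to between 52055193 and 60970931 per library, and 21177 to 22006 genes had at least 1 count. Levels are CPM, the counts scaled to a common effective library size with TMM factors. Differences between SKO and wild type are log2 fold changes with their SE, tested by edgeR's quasi-likelihood method and adjusted (Benjamini-Hochberg) over 19776 genes. A gene is called higher or lower where that adjusted p is under 0.05. Eif5a itself stood at 6.17 ± 0.771 CPM in SKO and 659.7 ± 42.3 CPM in wild type (SD, n = 3), which fits the labels of all 6 libraries. SKO replicate 3 stood apart from SKO replicates 1 and 2 on the second principal component, which held 13.5% of the variance, at -71.4 against 40.3 and 37.6. Of 20 round spermatid markers, all above 0, 11 were higher and 0 lower, with a summed level of 14400 to 15600 CPM in SKO and 9870 to 10900 CPM in wild type. Of 15 listed Sertoli cell markers 9 were tested and 8 were higher in SKO, with none of the 9 at 0 and a summed level of 72.4 to 192 CPM against 20.1 to 25.5 CPM. The 6 Leydig cell markers summed to 8.02 to 44.6 CPM against 1.26 to 21.6 CPM, and 3 of them were higher. The part of such cells in the results below was not tested. In bulk libraries, fewer cells of a type and less RNA per cell cannot be told apart.

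Of the 67 members, 9 were higher and 18 were lower in SKO, and 40 did not pass the threshold. The 27 called members are 40.3% of the set, near the 42.0% called among all genes tested. By direction, 13.4% of members were higher, against 21.2% of all genes and 18.7% of autosomal genes, and 26.9% were lower, against 20.9% of all genes and 22.0% of autosomal genes. The SKO and wild-type libraries did not overlap for 33 members (49.3%), against 55.6% of all genes. The median log2 fold change of the members was -0.07, beside 0.01 over all genes. By class, 5 of 8 COG genes, 3 of 7 COPI genes and 3 of 6 syntaxin-binding genes were lower, with 0, 0 and 1 higher. Of 9 Qb and Qc SNAREs not named as syntaxins, 4 were higher and 0 lower. The 5 COPII genes gave no call. Differences between classes were not tested. Every member passed edgeR's filter on low counts. Left without SKO replicate 3, the members gave 12 higher and 19 lower calls, beside 4329 and 4766 of 20262 genes. The split of calls depended on scaling. Library totals alone gave 6 higher and 27 lower members, where all genes tilted to lower as well (2831 higher and 5666 lower of 19776). Correcting each library for gene length and GC gave 13 higher and 12 lower members, beside 4020 and 3921 of 19203 genes.

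**Figure D1:**
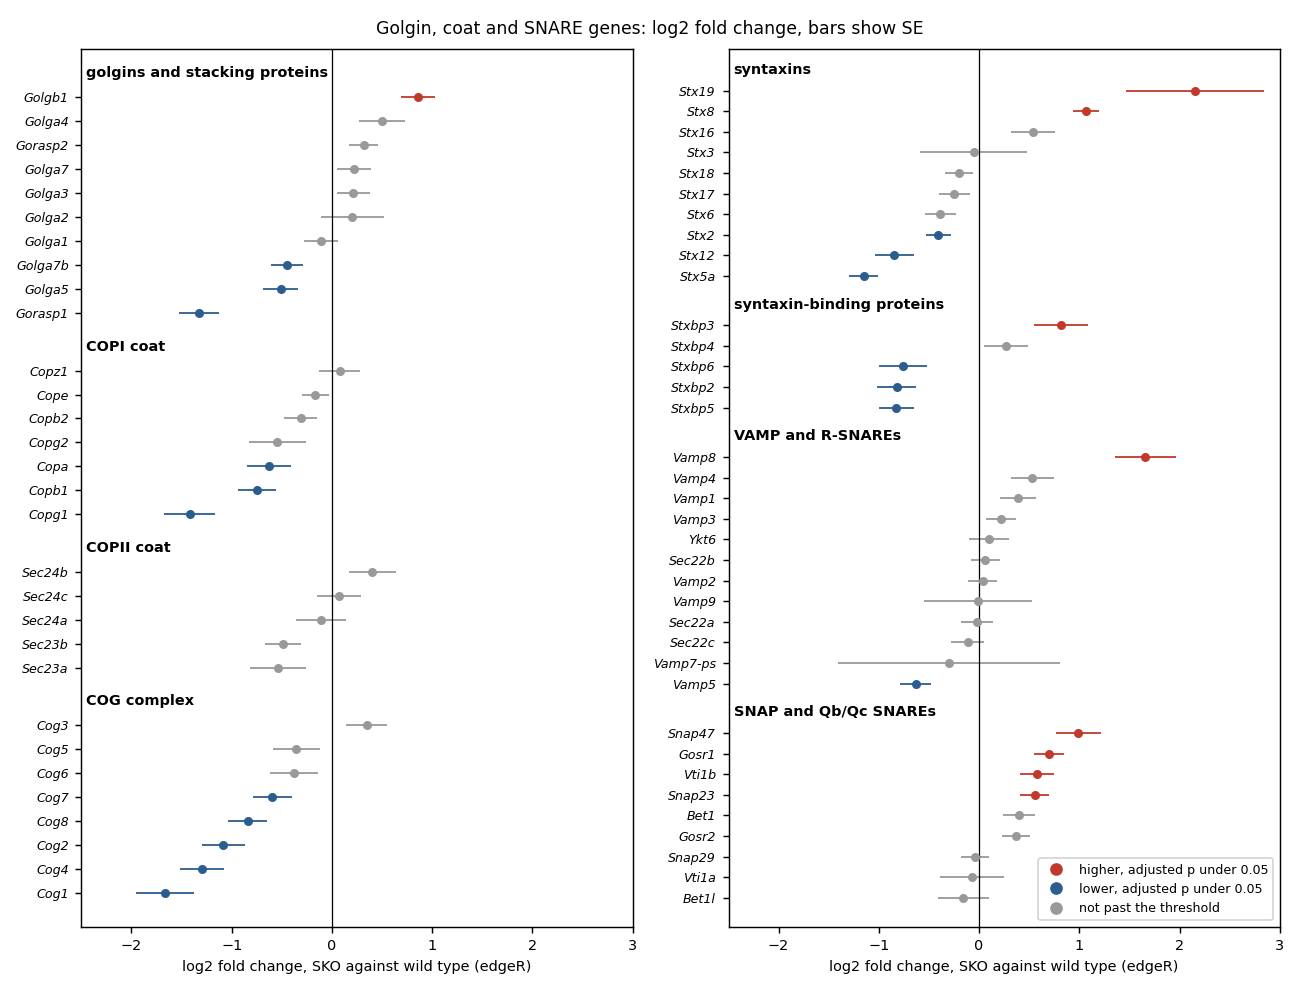
Log2 fold change (SKO against wild type, x axis) of 66 members by class, with bars showing the SE from edgeR over 3 libraries a group. Red marks genes called higher, blue genes called lower and grey genes not past the threshold. Of the 18 blue points 8 are COG or COPI genes, 3 are golgins or GRASPs, 3 syntaxins, 3 syntaxin-binding proteins and 1 an R-SNARE. Red marks 4 of the 9 Qb and Qc SNAREs not named as syntaxins.

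Of 8 COG genes, 5 were lower (62.5%) and 0 higher, with a median log2 fold change of -0.72. Over all genes tested 20.9% were lower and 21.2% higher, and this small class was not tested against those shares. With the length and GC correction the lower calls were those of Cog1, Cog2 and Cog4. In the complex, one lobe is built around COG2, COG3 and COG4 and the other around COG5, COG6 and COG7, with COG1 and COG8 joining them. Cog1 read 16.8, 8.72 and 12.9 CPM in SKO replicates 1 to 3 and 32.6, 57.3 and 31.7 CPM in wild type. All 3 SKO values lay below all 3 wild-type values, and the log2 fold change was -1.66 ± 0.29 (edgeR adjusted p = 0.00166). Cog4 stood at 62.0, 45.8 and 31.4 CPM in SKO against 114.4, 118.8 and 107.9 CPM in wild type. Its wild-type libraries were within a narrow band and the SKO libraries spread below it, with a log2 change of -1.29 ± 0.22 (edgeR adjusted p = 0.00144). Cog2 read 12.5, 8.76 and 7.58 CPM against 21.9, 21.9 and 17.3 CPM, a fall of 1.08 ± 0.21 on the log2 scale (edgeR adjusted p = 0.003).

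Both remaining calls of this complex were in Cog8 and Cog7. Cog8 fell from 115 ± 8.63 to 64.2 ± 17.2 CPM (log2 change -0.84 ± 0.19, edgeR adjusted p = 0.00642) and Cog7 from 54.9 ± 7.22 to 36.3 ± 8.89 CPM (-0.60 ± 0.20, edgeR adjusted p = 0.0336). With the length and GC correction neither passed, at -0.36 (edgeR adjusted p = 0.202) and -0.21 (edgeR adjusted p = 0.316), and Cog7 also lost its call when any of SKO replicates 1 and 2 and wild-type replicates 1 and 2 was left out (edgeR adjusted p = 0.0818 to 0.128). Cog6 had by far the highest level per kilobase of the complex, 205.3 CPM per kilobase in wild type, against 2.17 to 41.5 for the other 7. It read 624.4, 585.4 and 295.2 CPM in SKO and 622.3, 687.7 and 650.4 CPM in wild type. The groups overlap through SKO replicate 1, SKO replicate 3 is the lowest of the 6 libraries, and the log2 fold change of -0.38 ± 0.24 did not pass (edgeR adjusted p = 0.23). Cog5 also read lowest in SKO replicate 3, at 11.01 CPM against 19.2 and 22.1 CPM in SKO replicates 1 and 2. Cog3 was the one subunit with a positive value, 0.35 ± 0.20, and did not pass (edgeR adjusted p = 0.196). By library, the median of the 8 genes relative to the wild-type mean was -0.55, -0.91 and -1.20 in SKO replicates 1 to 3, and between -0.09 and 0.13 in wild type.

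Some reads of these genes cannot be assigned with certainty, since the strand setting of the counting is not given in the sources used here. Cog1 lies on the plus strand of chromosome 11 from 113649169 to 113667054 (GRCm38) and shares 22.4% of its exon bases with Fam104a on the other strand, which rose from 315 ± 15.7 to 458.2 ± 62.8 CPM (0.54 ± 0.13, edgeR adjusted p = 0.00987). Cog8, at 107046289 to 107056689 on the minus strand of chromosome 8, shares 28.2% of its exon bases with Pdf on the same strand, not analysed here. Cog5 shares exon bases with Hbp1 on the other strand, which rose by 0.78 ± 0.26 on the log2 scale (edgeR adjusted p = 0.0381). Cog4, at 110846600 to 110882227 on the plus strand of chromosome 8, shares 4.6% with Sf3b3, which did not pass (-0.38, edgeR adjusted p = 0.171).

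The promoters of the 3 COG genes that fell most are shown with those of the 3 SNARE genes called higher under every alternative at the same threshold, so that the starts of genes that moved in opposite directions can be read side by side. The windows come from RefSeq (GRCm38.p6) and run 5′ to 3′ along the gene, 250 bases before the start site and 50 after it. They lie at chr11:113649279-113649578 (plus strand) for Cog1, chr8:124520517-124520816 (plus strand) for Cog2, chr8:110846350-110846649 (plus strand) for Cog4, chr11:76763529-76763828 (minus strand) for Gosr1, chr11:59449985-59450284 (minus strand) for Snap47 and chr11:67966208-67966507 (plus strand) for Stx8. Capitals mark matches on either strand to the cAMP response element (CRE, TGACGTCA) or its core (TGACG), which lies within it, the GC box (GGGCGG), the CCAAT box (CCAAT), the TATA box (TATAAA) and the NRF1 site.
Cog1: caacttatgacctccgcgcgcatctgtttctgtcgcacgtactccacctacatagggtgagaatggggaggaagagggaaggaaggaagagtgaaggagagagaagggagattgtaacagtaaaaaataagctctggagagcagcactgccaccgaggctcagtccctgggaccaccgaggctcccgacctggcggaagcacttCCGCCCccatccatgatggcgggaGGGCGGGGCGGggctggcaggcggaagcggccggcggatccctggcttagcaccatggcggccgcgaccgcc
Cog2: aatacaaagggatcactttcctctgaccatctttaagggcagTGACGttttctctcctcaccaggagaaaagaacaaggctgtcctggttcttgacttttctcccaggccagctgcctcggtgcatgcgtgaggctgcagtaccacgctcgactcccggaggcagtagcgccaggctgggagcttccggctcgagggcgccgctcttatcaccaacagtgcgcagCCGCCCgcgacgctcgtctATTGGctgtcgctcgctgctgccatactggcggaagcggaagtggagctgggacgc
Cog4: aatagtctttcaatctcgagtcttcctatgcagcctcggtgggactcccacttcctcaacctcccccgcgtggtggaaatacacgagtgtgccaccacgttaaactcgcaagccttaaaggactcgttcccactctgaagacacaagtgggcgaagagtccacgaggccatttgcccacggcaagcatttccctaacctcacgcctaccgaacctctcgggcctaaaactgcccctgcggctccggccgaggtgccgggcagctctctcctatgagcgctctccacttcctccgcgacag
Gosr1: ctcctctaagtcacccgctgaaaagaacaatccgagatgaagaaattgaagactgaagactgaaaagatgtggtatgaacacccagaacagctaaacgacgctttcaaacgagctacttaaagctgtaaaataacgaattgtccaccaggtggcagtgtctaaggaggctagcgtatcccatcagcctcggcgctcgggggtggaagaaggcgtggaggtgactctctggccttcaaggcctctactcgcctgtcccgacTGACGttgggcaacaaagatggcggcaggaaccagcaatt
Snap47: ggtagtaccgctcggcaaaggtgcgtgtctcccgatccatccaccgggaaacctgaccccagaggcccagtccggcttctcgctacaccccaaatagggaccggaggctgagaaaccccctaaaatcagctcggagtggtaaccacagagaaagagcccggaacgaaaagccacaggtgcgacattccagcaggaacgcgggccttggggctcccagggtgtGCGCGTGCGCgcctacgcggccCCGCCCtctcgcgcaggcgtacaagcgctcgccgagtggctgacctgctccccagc
Stx8: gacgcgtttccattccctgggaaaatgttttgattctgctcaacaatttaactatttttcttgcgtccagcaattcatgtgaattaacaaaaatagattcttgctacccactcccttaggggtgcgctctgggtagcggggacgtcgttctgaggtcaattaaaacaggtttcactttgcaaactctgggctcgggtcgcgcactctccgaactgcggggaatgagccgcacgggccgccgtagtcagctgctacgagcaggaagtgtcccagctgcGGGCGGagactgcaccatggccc

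Cog1 held 3 GC boxes, Cog2 held 1 CRE core, 1 GC box and 1 CCAAT box, and Cog4 held no match to the motifs searched. Gosr1 held 1 CRE core, Snap47 held 1 GC box and 1 NRF1 site, and Stx8 held 1 GC box. A window was found for 60 of the 67 members. Of these, 71.7% held a GC box, against 35.7% of all 32851 windows, 43.3% a CRE core, against 20.8%, and 3.33% a TATA box, against 13.6%. The 2 sets were built differently: members have 1 window each, the one nearest the gene start, whereas the 32851 are all RefSeq windows. These include alternative starts and genes outside the count table. How far that choice accounts for the gaps was not tested. Member windows were also richer in GC, with a median of 61.8% against 52.7%. The GC box was in 14 of 18 windows of members called lower, in 4 of 8 of those called higher and in 25 of 34 of those not called. The printed windows of Cog1, Snap47 and Stx8 lie wholly inside the gene as placed by GENCODE, which begins at 113649169, 59451186 and 67966193. For these genes the 2 sources place the start differently. The motif matches describe the letters only.

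COPI, whose 7 coatomer subunits coat retrograde vesicles, had 3 genes lower and 0 higher among the 7 rows measured. The lower share, 42.9%, was not tested against the 20.9% of all genes. Among the rows are 2 genes of 1 subunit, Copg1 and Copg2, and Arcn1, the delta subunit, is not a member by its symbol. Copg1 read 14.9, 12.9 and 7.90 CPM in SKO and 27.6, 40.6 and 27.3 CPM in wild type. All SKO libraries lay below the wild-type ones, with a log2 change of -1.42 ± 0.26 (edgeR adjusted p = 0.0019). Copb1, the beta subunit, stood at 42.5, 48.8 and 29.1 CPM against 65.7, 69.3 and 66.7 CPM, a fall of 0.74 ± 0.19 on the log2 scale (edgeR adjusted p = 0.0108). Copa, the alpha subunit, was at 10.9, 8.18 and 11.7 CPM against 15.1, 20.3 and 12.2 CPM. Its groups were separated by less than 1 CPM, the log2 fold change was -0.63 ± 0.22 (edgeR adjusted p = 0.0457), and the call ended with the length and GC correction (edgeR adjusted p = 0.192) and on leaving out any of SKO replicates 1 and 2 and wild-type replicates 1 and 2 (edgeR adjusted p = 0.0793 to 0.192). Arcn1 fell from 120.7 ± 6.47 to 64.2 ± 19.9 CPM (-0.91 ± 0.21, edgeR adjusted p = 0.00758).

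The other COPI genes did not pass. Copz1, with the highest level per kilobase of the class in wild type at 40.7 CPM per kilobase, read 122.5, 121.1 and 70.2 CPM in SKO and 97.2, 102.2 and 98.1 CPM in wild type. SKO replicates 1 and 2 were above the wild-type range and SKO replicate 3 below it, so the value of 0.08 ± 0.20 (edgeR adjusted p = 0.788) is a mean of opposite deviations. Without SKO replicate 3 it was 0.26 (edgeR adjusted p = 0.0463), and its sign turned under library totals and without SKO replicate 1 or 2. Copg2, Copb2 and Cope were at -0.55 ± 0.28, -0.31 ± 0.17 and -0.17 ± 0.14.

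None of the 5 COPII genes measured passed the threshold in edgeR with TMM scaling, where 42.0% of all genes did (not tested). Sec23b, of the inner coat shell, had the highest wild-type level per kilobase of the 5, 11.5 CPM per kilobase. It read 32.3, 23.4 and 21.1 CPM in SKO and 35.0, 36.1 and 36.5 CPM in wild type, apart in all libraries, with a log2 change of -0.49 ± 0.18 and an edgeR adjusted p of 0.0512. It did pass, as lower, with the DESeq2 test (DESeq2 adjusted p = 0.0232), limma-voom (limma adjusted p = 0.0325), and in edgeR with DESeq2 size factors, library totals, the 5 CPM filter, the length and GC correction with or without a replicate block, and without SKO replicate 1 (edgeR adjusted p = 0.0078 to 0.0454). In edgeR with the other settings it did not (edgeR adjusted p = 0.0555 to 0.128). Its paralog Sec23a was at -0.54 ± 0.28. The cargo-binding genes Sec24a, Sec24b and Sec24c were at -0.11 ± 0.25, 0.40 ± 0.24 and 0.07 ± 0.22, each highest within its SKO group in replicate 3. Sec24b read 105.6 CPM there against 63.0 and 58.1 CPM in SKO replicates 1 and 2.

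**Figure D2:**
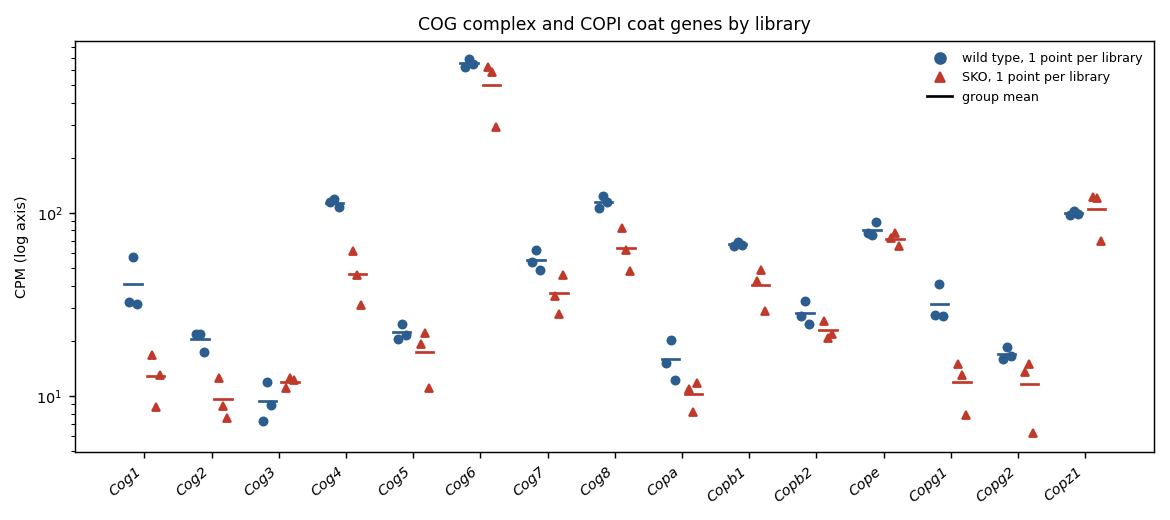
CPM (log axis) of the 8 COG genes and 7 COPI genes, with 1 point per library, circles for wild type and triangles for SKO, and a line at each group mean of 3 libraries. SKO triangles lie below the wild-type circles for Cog1, Cog2, Cog4, Cog7, Cog8, Copa, Copb1, Copg1 and Copg2, and SKO replicate 3 is the low triangle of Cog6, Cog5 and Copz1.

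Among 10 golgin and GRASP genes, 1 was higher and 3 were lower. Golgb1 encodes giantin, a very long golgin anchored in the membrane, and was the one that rose. It read 33.1, 36.5 and 43.8 CPM in SKO and 19.4, 24.5 and 18.6 CPM in wild type, with the groups apart and a log2 change of 0.86 ± 0.17 (edgeR adjusted p = 0.00346). Gorasp1, which encodes GRASP65, fell: it read 5.12, 3.75 and 5.27 CPM against 12.7, 12.4 and 10.3 CPM, a log2 change of -1.33 ± 0.20 (edgeR adjusted p = 0.000725). Gorasp1 lies at 119925257 to 119937565 on the minus strand of chromosome 9 and shares 32.1% of its exon bases with Wdr48 on the other strand, which went down from 494.7 ± 46.5 to 288.9 ± 109 CPM (-0.78 ± 0.25, edgeR adjusted p = 0.0335), so reads of the overlap may belong to either gene.

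Gorasp2, which encodes GRASP55, was the most abundant member per kilobase in wild type at 285.2 CPM per kilobase. It stood at 913.8, 955.4 and 705 CPM in SKO and 711.4, 626.5 and 730.2 CPM in wild type. SKO replicates 1 and 2 were above every wild-type library and SKO replicate 3 was within their range, and the value of 0.32 ± 0.15 did not pass (edgeR adjusted p = 0.108). Golga5, which encodes golgin-84, read 74.6, 66.0 and 50.6 CPM in SKO and 84.6, 105.8 and 82.2 CPM in wild type (-0.51 ± 0.18, edgeR adjusted p = 0.0406). Golga7b, a palmitoylation partner gene related to Golga7, fell from 15.7 ± 0.426 to 11.5 ± 1.58 CPM (-0.45 ± 0.16, edgeR adjusted p = 0.0475). Neither call held with the length and GC correction (edgeR adjusted p = 0.216 and 0.967). Golga5 also lost it on leaving out SKO replicate 2 or any wild-type library (edgeR adjusted p = 0.0624 to 0.16), and Golga7b on leaving out any library but SKO replicate 3 (edgeR adjusted p = 0.0941 to 0.141). Golga1, Golga2, Golga3, Golga4 and Golga7 ranged from -0.11 to 0.50 and did not pass. Golga3 is needed for mouse spermatogenesis and stood at 30.6 ± 3.52 CPM in SKO and 26.4 ± 3.62 CPM in wild type.

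Of the 31 rows classed by symbol as SNAREs, the pseudogene Vamp7-ps included, 7 were higher, 4 were lower and 20 did not pass. The shares higher and lower were 22.6% and 12.9%, against 21.2% and 20.9% of all genes. The median log2 fold change of the 31 was 0.04. Stx5a, the Qa-SNARE of transport between the endoplasmic reticulum and the Golgi and within the Golgi, fell by 1.15 ± 0.15 on the log2 scale (edgeR adjusted p = 0.000318). Its values were 34.02, 35.2 and 27.5 CPM in SKO and 73.5, 73.96 and 67.5 CPM in wild type, with little spread inside either group. The gene lies at 8741413 to 8756069 on the plus strand of chromosome 19.

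None of 6 genes for known partners of the syntaxin 5 protein in SNARE bundles was called lower. Over all genes tested 20.9% were called lower, and this small set, chosen after its values were seen, was not tested against that share. Gosr1 (GS28, a Qb-SNARE of the Golgi) rose, at 130.6, 147.9 and 115.6 CPM in SKO against 86.3, 69.6 and 87.2 CPM in wild type (log2 change 0.70 ± 0.15, edgeR adjusted p = 0.00488). Gosr2 and Bet1 were apart between the groups without passing, at 0.37 ± 0.14 (edgeR adjusted p = 0.0547) and 0.40 ± 0.16 (edgeR adjusted p = 0.0729). Sec22b, Ykt6 and Bet1l were at 0.06 ± 0.14, 0.10 ± 0.20 and -0.16 ± 0.25. Counts of each partner divided by those of Stx5a in the same library, which need no scaling between libraries, were computed as a description after the values were seen. Gosr1 had 3.84, 4.21 and 4.21 counts per Stx5a count in SKO and 1.17, 0.941 and 1.29 in wild type. For Gosr2 the ratios were 3.22, 3.53 and 5.17 against 1.37, 1.32 and 1.38, and for Sec22b 1.10, 1.14 and 1.21 against 0.447, 0.519 and 0.514. All of these ratios share the denominator Stx5a, which fell, so higher ratios in SKO follow from its fall also where a partner did not pass, as for Sec22b.

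Syntaxin 8, VTI1B and VAMP8 are known to pair with syntaxin 7 on late endosomes, and their 3 genes are described together, a grouping made after their values were seen. Stx8, a Qc-SNARE gene, read 144.2, 147 and 162.8 CPM in SKO and 73.3, 66.4 and 77.6 CPM in wild type, wide apart, with a log2 change of 1.06 ± 0.13 (edgeR adjusted p = 0.000247). Vti1b, a Qb-SNARE gene, stood at 38.5, 39.2 and 46.5 CPM against 31.3, 29.2 and 22.5 CPM (0.58 ± 0.17, edgeR adjusted p = 0.0204). It shares 17.7% of its exon bases with Arg2 on the other strand, at 1.11 ± 0.406 CPM in SKO and 1.80 ± 0.704 CPM in wild type. The Vti1b call ended under library totals (0.35, edgeR adjusted p = 0.149), without wild-type replicate 2 (edgeR adjusted p = 0.0511) and without wild-type replicate 3 (edgeR adjusted p = 0.0923). Vamp8, the R-SNARE gene, was scarce: its counts were 102, 108 and 134 in SKO and 46, 39 and 43 in wild type, or 2.26 ± 0.349 against 0.713 ± 0.0627 CPM (1.66 ± 0.30, edgeR adjusted p = 0.00204). Stx7 was not analysed here.

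**Figure D3:**
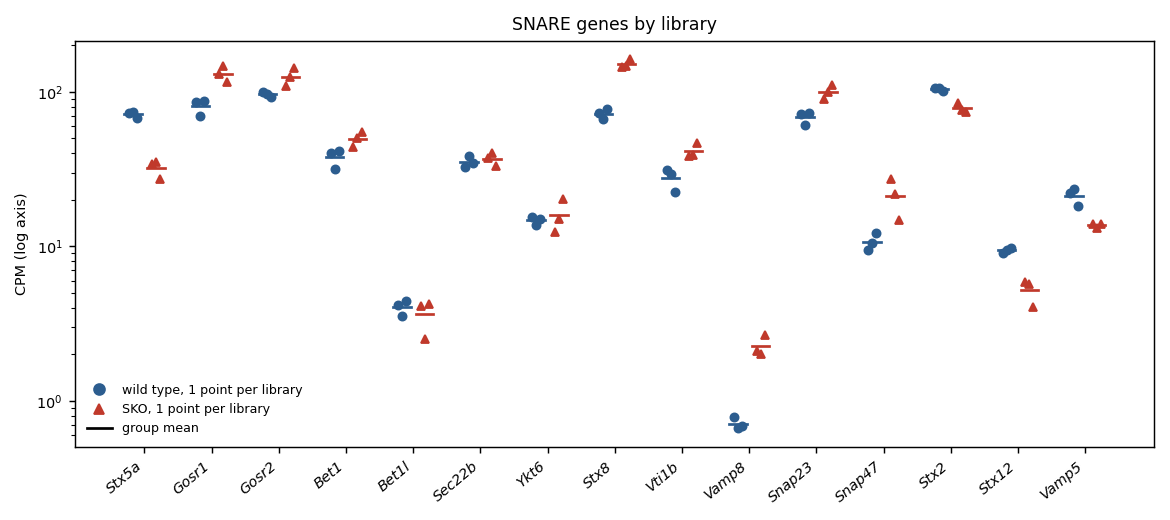
CPM (log axis) of 15 SNARE genes, with 1 point per library, circles for wild type and triangles for SKO, and a line at each group mean of 3 libraries. Stx5a triangles sit at 27.5 to 35.2 CPM below circles at 67.5 to 73.96 CPM, whereas those of Gosr1, Stx8, Vti1b, Vamp8, Snap23 and Snap47 sit above their circles.

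SNAP-type genes encode the Qb and Qc helices in one protein, and of the 3 measured, Snap23 and Snap47 rose and Snap29 did not pass. Snap47 read 27.5, 21.7 and 14.8 CPM in SKO and 9.51, 10.6 and 12.1 CPM in wild type (0.99 ± 0.23, edgeR adjusted p = 0.00664), with the lowest SKO value in replicate 3 still above wild type. It shares 11.6% of its exon bases with Jmjd4 on the other strand, whose level of 2.96 ± 0.823 CPM in SKO and 3.75 ± 0.963 CPM in wild type did not pass the threshold (edgeR adjusted p = 0.371). Snap23, the widely expressed relative of neuronal SNAP25, stood at 90.3, 100 and 111.2 CPM against 71.8, 60.7 and 72.9 CPM (0.55 ± 0.14, edgeR adjusted p = 0.0116). Its call ended under library totals (edgeR adjusted p = 0.11), with the length and GC correction (edgeR adjusted p = 0.0809) and without wild-type replicate 2 (edgeR adjusted p = 0.055). Snap29 was at -0.04 ± 0.14 (edgeR adjusted p = 0.851).

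Stx2, without which mouse spermatocytes form multinucleate cells, had the highest wild-type level per kilobase among syntaxins, at 35.5 CPM per kilobase. It read 85.1, 76.5 and 74.1 CPM in SKO and 105.3, 106.2 and 101.2 CPM in wild type, apart but by a small step (-0.41 ± 0.13, edgeR adjusted p = 0.0255). The length and GC correction left -0.05 (edgeR adjusted p = 0.752), and the call also ended when SKO replicate 2 or any 1 wild-type library was left out (edgeR adjusted p = 0.0561 to 0.103). Stx12, an endosomal syntaxin gene, read 5.91, 5.73 and 4.08 CPM against 9.05, 9.49 and 9.70 CPM (-0.84 ± 0.20, edgeR adjusted p = 0.00724). Stx6, Stx16, Stx17 and Stx18 ranged from -0.39 to 0.54 without passing, and Stx3 stood under 1 CPM in every library. Stx19 was called higher (2.16 ± 0.69, edgeR adjusted p = 0.0301) on counts of 28, 82 and 129 in SKO and 6, 19 and 38 in wild type. Its groups overlap, with SKO replicate 1 at 0.578 CPM and wild-type replicate 3 at 0.609 CPM, and the call ended on leaving out SKO replicate 3 (1.57, edgeR adjusted p = 0.106), SKO replicate 2 or wild-type replicate 1 or 2 (edgeR adjusted p = 0.0676 to 0.0986). Sertoli cell markers summed to 192, 117 and 72.4 CPM in SKO replicates 1 to 3, and peritubular cell markers to 32.5, 36.05 and 71.3 CPM, against 6.24 to 15.99 CPM in wild type. Their part in the low-level calls of Stx19 and Vamp8 was not tested.

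Of 12 R-SNARE rows by symbol, the pseudogene Vamp7-ps included, Vamp8 was called higher, Vamp5 was called lower and 10 did not pass. The share called, 16.7%, was not tested against the 42.0% of all genes. Vamp5 read 14.0, 13.2 and 14.0 CPM in SKO and 22.2, 23.5 and 18.3 CPM in wild type (-0.63 ± 0.16, edgeR adjusted p = 0.00933). With the length and GC correction Vamp5 was at -0.39 (edgeR adjusted p = 0.0453), and with that correction and a replicate block it did not pass (edgeR adjusted p = 0.109). Vamp4, an R-SNARE gene of the trans-Golgi network with the highest wild-type level per kilobase of the class (31.4 CPM per kilobase), read 137.4, 150.8 and 86.8 CPM in SKO and 92.0, 68.8 and 98.5 CPM in wild type. SKO replicate 3 fell within the wild-type range, and the value of 0.53 ± 0.22 did not pass (edgeR adjusted p = 0.0751). Without that library it was 0.71 (edgeR adjusted p = 0.00303). Vamp2, Vamp3, Sec22a and Sec22b lay between -0.02 and 0.22. Vamp9 and the pseudogene Vamp7-ps stayed under 1 CPM in every library, and for Vamp7-ps SKO replicate 1 had 0 counts.

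Syntaxin-binding proteins chaperone or restrain SNARE assembly, and 3 of their 6 genes were lower and 1 higher. Stxbp5, which encodes tomosyn, an inhibitor of SNARE pairing, fell from 15.1 ± 2.12 to 8.51 ± 0.742 CPM (-0.83 ± 0.17, edgeR adjusted p = 0.00414). Stxbp2, the Munc18-2 gene, read 44.4, 30.1 and 27.9 CPM in SKO and 57.6, 68.0 and 55.1 CPM in wild type (-0.82 ± 0.20, edgeR adjusted p = 0.00802), and did not pass with the length and GC correction (-0.43, edgeR adjusted p = 0.0647). Stxbp6 fell by 0.76 ± 0.24 from 3.13 ± 0.235 CPM (edgeR adjusted p = 0.0276). Stxbp3, the Munc18c gene, rose by 0.82 ± 0.27 from 1.99 ± 0.325 CPM (edgeR adjusted p = 0.0343), and its call ended under library totals (edgeR adjusted p = 0.112), with the length and GC correction (edgeR adjusted p = 0.0954), and on leaving out SKO replicate 2 or any wild-type library (edgeR adjusted p = 0.0704 to 0.153). Stxbp6 lost its call on leaving out the same libraries (edgeR adjusted p = 0.0625 to 0.095). Stxbp4 did not pass, at 0.27 ± 0.22.

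Related genes were compared as log2 ratios of counts (plus 1) per length within each library, with an exact permutation test over the 6 libraries, two-sided. Of 13 listed pairs 10 are reported, and 3 libraries against 3 cannot give a p below 0.1. The groups did not overlap for 7 pairs, each at the smallest exact permutation p of 0.1, or 0.143 adjusted over the 10 pairs, so no pair passed. Taken singly, 55.6% of all genes tested did not overlap either, and the share for ratios of other gene pairs was not computed. The largest difference was in Gorasp1 to Gorasp2, with ratios of -8.17, -8.68 and -7.75 in SKO and -6.49, -6.35 and -6.84 in wild type. Gorasp1 shares 32.1% of its exon bases with Wdr48 on the other strand, which was also lower in SKO, so its counts may hold reads of that gene. Copg1 to Copg2 stood at -0.29, -0.64 and -0.10 in SKO and 0.37, 0.70 and 0.30 in wild type, so Copg1 was the more abundant per length in all 3 wild-type libraries and Copg2 in all 3 SKO libraries. Copg2 shares 17.8% of its exon bases with Mest on the other strand, not analysed here, so which of the pair is more abundant is uncertain. Golga7 to Golga7b turned the other way, from -0.39, -0.67 and -0.50 in wild type to 0.05, 0.30 and 0.11 in SKO. Snap23 to Snap29 went from a mean of 1.37 ± 0.12 to 1.96 ± 0.25 (SD, n = 3), and Sec24a to Sec24b from -2.43 ± 0.07 to -2.93 ± 0.20. Bet1 to Bet1l differed by 0.59 and Vamp2 to Vamp3 by -0.19. The ratios carry no GC correction. With the length and GC correction, log2 fold changes were -0.002 for Bet1 and 0.127 for Bet1l, and 0.278 for Vamp2 and 0.106 for Vamp3. The order within these 2 pairs thus turned, and the rest of the 7 pairs kept theirs. Sec23a to Sec23b, Vti1a to Vti1b and Sec22a to Sec22c overlapped.

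**Figure D4:**
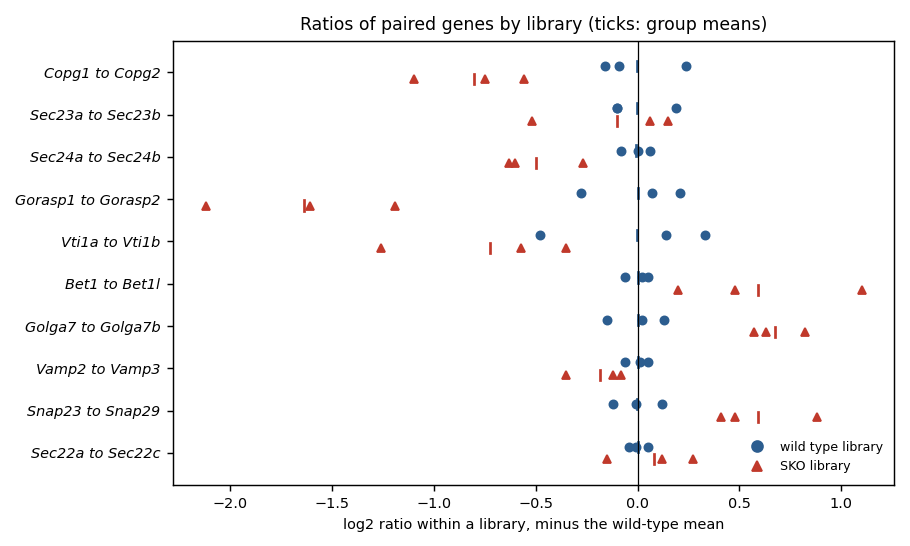
Log2 ratio of the length-scaled counts of 10 gene pairs within each library, minus the wild-type mean (x axis), with circles for wild-type libraries, triangles for SKO libraries and ticks at group means. SKO triangles of Gorasp1 to Gorasp2 and Copg1 to Copg2 lie to the left of all circles and those of Golga7 to Golga7b and Snap23 to Snap29 to the right.

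Other genes of vesicle traffic, taken by function from 7 lists, gave 28 higher and 33 lower among 138 tested. These shares, 20.3% and 23.9%, are near the 21.2% and 20.9% of all genes tested. The counts for single lists below were not tested against those shares. Higher calls numbered 17 without wild-type replicate 1 and 18 without wild-type replicate 3, and lower calls 20 without wild-type replicate 2. In the ARF list, which holds GTPases that recruit COPI, their regulators and Arcn1, 7 of 15 were lower, Arcn1 among them, and 2 higher. Arfgap1, which encodes a protein that turns ARF1 off, fell from 19.4 ± 1.35 to 7.30 ± 1.11 CPM (-1.41 ± 0.17, edgeR adjusted p = 0.000235), while Arf4 rose by 0.41 ± 0.11 (edgeR adjusted p = 0.0168). Among TRAPP, exocyst, GARP and NRZ tethers 10 of 29 were lower and 5 higher, with a median of -0.38. Nbas, an NRZ subunit gene at the endoplasmic reticulum, fell from 125.2 ± 3.63 to 31.8 ± 2.49 CPM (-1.98 ± 0.13, edgeR adjusted p = 1.55e-05), while Exoc6 rose by 1.43 ± 0.33 (edgeR adjusted p = 0.00658).

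Around the COPII coat, 5 of 11 other genes were higher and 3 lower. Sar1a, the GTPase gene that starts COPII assembly, rose from 125.2 ± 7.45 to 319.1 ± 26.4 CPM (1.35 ± 0.13, edgeR adjusted p = 7.05e-05), while Sec23ip fell by 0.81 ± 0.15 (edgeR adjusted p = 0.00234). The p24 and cargo receptor list had 6 of 22 higher and 0 lower, with Tmed2 up from 67.6 ± 2.33 to 120.9 ± 5.62 CPM (0.84 ± 0.12, edgeR adjusted p = 0.000634). Of 17 other Golgi structure genes 2 were higher and 3 lower: Trip11, which encodes the golgin GMAP210, rose by 0.76 ± 0.15 (edgeR adjusted p = 0.00267) and Tmem115 fell by 1.27 ± 0.20 (edgeR adjusted p = 0.00101). SNARE recycling and related fusion genes had 2 of 16 higher and 2 lower, with Bnip1, a Qb-SNARE gene of the endoplasmic reticulum, up by 0.95 ± 0.15 (edgeR adjusted p = 0.000953) and Scfd2 at -1.07 ± 0.23 (edgeR adjusted p = 0.00464). Clathrin and adaptor genes had 6 of 28 higher and 8 lower, among them 3 of the 4 subunit genes of the adaptor complex AP-4. Ap4s1 was at 1.24 ± 0.15 (edgeR adjusted p = 0.000208), Ap4e1 at -2.48 ± 0.31 (edgeR adjusted p = 0.000298) and Ap4m1 at -1.32 ± 0.17 (edgeR adjusted p = 0.000316), and Ap4b1 did not pass (-0.10 ± 0.32). Ap4m1 and Ap4b1 were added after their values were seen.

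Members are longer than most genes, with a median transcript length of 3355 bases against 2299 over all genes tested. Correcting each library for length and GC by loess raised the value of 51 of the 67 members and moved their median from -0.07 to 0.06. The median over all genes was 0.012 without the correction and 0.011 with it, and the share of all genes raised was not computed. Of the 27 member calls 18 were made with and without the correction. The calls it ended were those of Cog7, Cog8, Copa, Golga5, Golga7b, Stx2, Stxbp2, Snap23 and Stxbp3. It added Golga4, Gorasp2, Gosr2, Sec24b, Stx16 and Vamp1 as higher and Sec23b as lower. Across the 16 alternatives that kept the threshold of 0.05, 13 members were called in the same direction each time. Golgb1, Gosr1, Snap47 and Stx8 were higher, and Cog1, Cog2, Cog4, Copb1, Copg1, Gorasp1, Stx12, Stx5a and Stxbp5 lower. The share of all genes called each time was not computed. Calls were also gained on leaving out a library. Without SKO replicate 3, Gorasp2 was at 0.41 (edgeR adjusted p = 0.00261), Stx16 was at 0.67 (edgeR adjusted p = 0.0119) and Stx6 was at -0.42 (edgeR adjusted p = 0.0488), beside Copz1 and Vamp4 above. Without SKO replicate 1, Gosr2 was at 0.43 (edgeR adjusted p = 0.0374), Sec23a was at -0.84 (edgeR adjusted p = 0.04) and Sec23b was at -0.71 (edgeR adjusted p = 0.0088). Without wild-type replicate 2, Golga4 was at 0.77 (edgeR adjusted p = 0.0282).

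**Figure D5:**
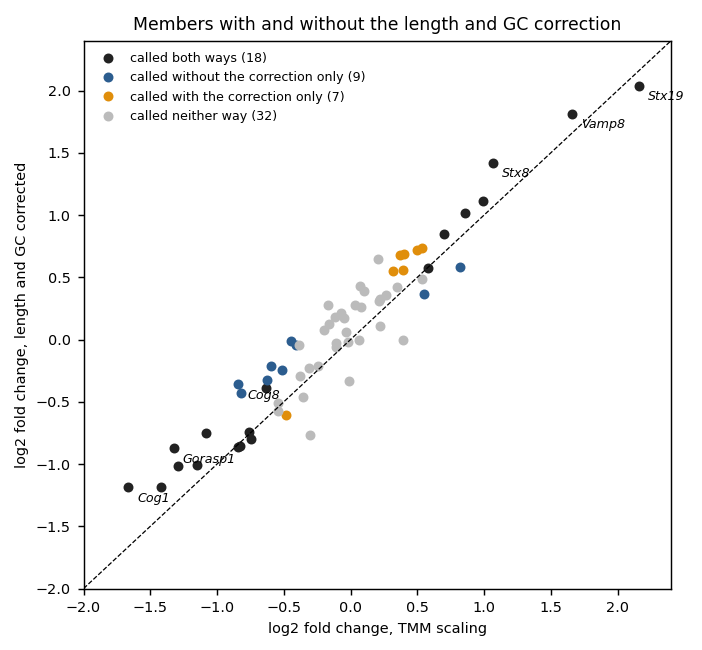
Log2 fold change of 66 members with TMM scaling (x axis) and with the length and GC correction (y axis), coloured by whether the call was made both ways (18 genes), without the correction only (9), with it only (7) or neither way (32). The dashed line marks equal values, and 50 points lie above it.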

How the data were processed

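Round spermatids were measured by Smart-seq2, an mRNA method with PCR amplification and no molecular identifiers. The authors deposited raw counts per gene for each library. The submitters' processing notes name GRCm38 (mm10), featureCounts 1.5.0-p3 (Subread), HISAT2 2.0.5, Trim Galore 0.6.4 and FastQC. The annotation release, the strand setting and how multi-mapping reads were treated: none is given in the sources used here. Columns, named cKO and WT, were matched to the samples through the genotype and number in their titles.

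Deposited counts entered edgeR 4.0.16 in R 4.3.3. filterByExpr at its defaults (minimum count 10, minimum total 15) left 19776 genes. After TMM scaling these were tested by quasi-likelihood without a replicate block and adjusted by Benjamini-Hochberg. Each SE was derived from the log2 fold change and the F statistic. Length and GC were read from GENCODE M21 (GRCm38), 1 transcript per gene, chosen by longest coding sequence, for 96.7% of rows. Replicates differed by more than counting error alone gives (chi-square per degree of freedom 14.8 to 149). Counting error does not cover PCR copies, so this cannot show that 2 libraries came from separate animals. Each library was entered on its own. The script was tested on simulated data. Members, lists, pairs and the naming rule were chosen with earlier results of these data known. The rule names, per class, up to 3 called genes in each direction with the lowest adjusted p and at least 5 CPM in 1 group, the gene highest per kilobase in wild type, and all paired genes. Other names were added after their values were seen. The counts cover all members, but 1 member and its pair are not reported here. From each partner list it takes up to 1 in each direction. Of 8 marker lists, the calls of 3 are given in the report, and the peritubular list appears there by its summed level only. Calls in the lists beyond those 3 were for spermatocyte (2 of 12 higher, 1 lower), spermatogonium (0 of 6 higher, 2 lower), peritubular (2 of 4 higher, 0 lower), macrophage (1 of 5 higher, 1 lower) and endothelium markers (0 of 2 higher, 1 lower). Alternatives were upper quartile factors, library totals, the size factors and test of DESeq2 1.42.0, limma-voom (limma 3.58.1), other filters, a threshold of 0.01, each library left out, a replicate block, and a loess correction (span 0.3) for length and GC content.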

Additional observations from a re-analysis of the deposited data

How the results depend on the processing

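At a threshold of 0.01 the members gave 5 higher and 11 lower calls, and with the replicate block together with the length and GC correction 12 higher and 10 lower. With the replicate block alone they gave 7 higher and 12 lower, all 19 among the 27 calls without it, and the block ended those of Cog7, Copa, Golga5, Golga7b, Stx2, Stxbp3, Stxbp6 and Vti1b. Deviations of same-numbered libraries correlated at -0.022, -0.051 and -0.065, and those of differently numbered libraries at -0.026 to 0.074. Weak correlations over all genes cannot show whether same-numbered libraries shared a litter or day, so pairing by number stays unknown. Leaving out 1 library gave 6 to 12 higher and 12 to 19 lower members: the counts fell to 7 and 12 without SKO replicate 2 or wild-type replicate 1, and to 6 and 12 without wild-type replicate 2. No called member was called in the opposite direction under any setting. The median of the members was -0.071, and moved to -0.028 with upper quartile factors, -0.299 with library totals (median of all genes -0.228), -0.113 with limma-voom, -0.114 with the replicate block, 0.061 with the length and GC correction and 0.062 with that correction and the block, and it ranged from -0.151 to -0.015 when 1 library was left out.

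Results for all genes and for the partner lists were recomputed as alternatives chosen after seeing the data. Over all genes 4185 were higher and 4127 lower, against 2611 and 2553 at 0.01 and 2742 lower with 5 CPM in 3 libraries. The replicate block gave 3552 and 3666 genes, and the block with the length and GC correction 3489 and 3530. With 1 library left out, 3064 to 4329 genes were higher and 3025 to 4766 lower. Partner lists gave 28 higher and 33 lower, against 17 and 19 at 0.01 and 17 higher under library totals. Leaving out 1 library gave 17 to 33 higher (17 without wild-type replicate 1) and 20 to 37 lower partner genes (20 without wild-type replicate 2). Pairs without overlap numbered 7, and 7 to 9 when 1 library was left out.

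Signs turned in uncalled members, with no called member among them. Under library totals, the log2 change put Copz1 at -0.174, Golga7 at -0.015, Vamp2 at -0.201, Vamp3 at -0.017, Golga2 at -0.016, Sec22b at -0.183, Golga3 at -0.02, Ykt6 at -0.129 and Sec24c at -0.158. With the length and GC correction, the log2 change put Vti1a at 0.213, Bet1 at -0.002, Bet1l at 0.127, Snap29 at 0.061, Sec22c at 0.185, Sec22b at -0.003, Stx18 at 0.076, Cope at 0.274 and Stx3 at 0.173. With that correction and the replicate block, the log2 change put Vti1a at 0.146, Bet1 at -0.01, Bet1l at 0.109, Snap29 at 0.062, Sec22c at 0.178, Stx18 at 0.076, Cope at 0.267 and Stx3 at 0.22. With upper quartile factors, the log2 change put Sec22a at 0.012 and Vamp9 at 0.028. With 5 CPM required in 3 libraries, the log2 change put Sec22a at 0.004. With 1 library left out, values ran for Copz1 from -0.075 to 0.262, Sec24a from -0.39 to 0.076, Vti1a from -0.413 to 0.165, Bet1l from -0.325 to 0.02, Vamp2 from -0.06 to 0.051 and Snap29 from -0.121 to 0.001. With 1 library left out, values ran for Sec22a from -0.123 to 0.077, Golga2 from -0.309 to 0.383, Vamp7-ps from -1.172 to 0.293, Sec22b from -0.032 to 0.123, Vamp9 from -0.189 to 0.185 and Ykt6 from -0.147 to 0.231. With 1 library left out, values ran for Sec24c from -0.23 to 0.183 and Stx3 from -0.328 to 0.121. The cause was not tested.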
